A study of Mus musculus with 16 samples.

Results

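The miR-34 family was measured in sciatic nerves of mice whose Schwann cells lack Dicer, the enzyme that cuts miRNA hairpins into mature miRNAs. The family was taken as every probe whose miRNA name on the array was mmu-miR-34a, mmu-miR-34b-3p, mmu-miR-34b-5p, mmu-miR-34c or mmu-miR-34c*. These are 5 of the 650 miRNA names on the array and 10 of its 1857 probes, with 2 probes per name and 10 spots per probe. Only the 2 probes of miR-34a were among the 681 probes of the 281 miRNAs that counted as expressed. For this, Feature Extraction had to detect a miRNA on a share of 0.5 or more of the arrays in any group.

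The study compared 4 groups of 4 mice, with 1 single-colour Agilent miRNA array per mouse. The mutants were Dicer fl/fl Dhh-Cre+ and the controls were Dicer wt/fl Dhh-Cre+, each at embryonic day 17 (E17) and at postnatal day 4 (P4). All 16 mice carried the Cre transgene, so the controls also carried Cre and had 1 floxed Dicer allele. The Dhh promoter drives Cre in the Schwann cell lineage from the precursor stage on, and the nerves also hold other cells, in which the state of Dicer was not measured. Whole nerves were hybridised, so fewer cells of a type and less miRNA per cell cannot be told apart. All E17 arrays lay on 1 slide and all P4 arrays on another, with both genotypes on each. A difference between ages is therefore also one between slides, and these cannot be told apart. The arrays carry no measure of Dicer itself.

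miR-34 miRNAs are known as direct transcriptional targets of the tumour suppressor p53 and as repressors of cell cycle and growth factor genes, among them cyclin D1, Cdk6, Met and Notch1. miR-34a comes from a gene of its own and is found in many tissues. miR-34b and miR-34c come from a shared primary transcript that is best known from testis and from multiciliated epithelia such as the airway. A miRNA recognises its targets mainly through its seed, which is bases 2 to 8 from the 5′ end, so miRNAs with the same seed can share targets.

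The mature sequences are shown because they divide the family into 2 seeds and because the array has separate probes for members that share a seed. RefSeq (build GRCm38.p6) gave a mature entry for 4 of the 5 members, and mmu-miR-34c is given by name alone. The seed is in capitals.
miR-34a (miR-34a-5p): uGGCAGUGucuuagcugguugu
miR-34b-5p: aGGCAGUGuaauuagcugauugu
miR-34b-3p: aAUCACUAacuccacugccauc
miR-34c* (miR-34c-3p): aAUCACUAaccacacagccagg
miR-449a (miR-449a-5p): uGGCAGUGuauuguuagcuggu
miR-449c (miR-449c-5p): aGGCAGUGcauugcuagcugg
The 5′ arms carry the seed GGCAGUG, which 4 of the 1679 mature mouse miRNAs in RefSeq hold (0.238%). These are miR-34a, miR-34b-5p and the relatives miR-449a and miR-449c. Without a mature entry, miR-34c is not in this count, but its hairpin below holds GGCAGUG in the 5′ arm. The 3′ arms of miR-34b and miR-34c carry AUCACUA, held by these 2 of the 1679 (0.119%). miR-34a and miR-34b-5p differ by 4 single-base changes, insertions or deletions, and miR-34a and miR-449a by 6.

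The hairpins show which arms come from which gene. Mir34a lies on chromosome 4 (chr4:150068454-150068555, plus strand). Mir34b (chr9:51103562-51103645) and Mir34c (chr9:51103034-51103110) lie on the minus strand of chromosome 9 with 451 bases between them. Both seeds are in capitals.
Mir34a: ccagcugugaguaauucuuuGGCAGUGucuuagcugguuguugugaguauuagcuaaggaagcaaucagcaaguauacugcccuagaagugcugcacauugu
Mir34b: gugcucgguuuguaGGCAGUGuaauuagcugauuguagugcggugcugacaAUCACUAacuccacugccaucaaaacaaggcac
Mir34c: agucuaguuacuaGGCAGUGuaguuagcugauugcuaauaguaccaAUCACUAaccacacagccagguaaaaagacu
The Mir34b and Mir34c hairpins hold GGCAGUG in the 5′ arm and AUCACUA in the 3′ arm, and the Mir34a hairpin holds only GGCAGUG.

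miR-34a was the only member detected in these nerves. It was detected on 16 of 16 arrays, and all 160 spots of each of its 2 probes were well above background. The other 4 names, miR-34b-3p, miR-34b-5p, miR-34c and miR-34c*, were detected on 0 of 16 arrays. Only 3 of their 1280 spots were well above background. Their background-subtracted gene signal, the value that the scanner software gives per miRNA before normalization, lay between −5.17 and 4.12, whereas that of miR-34a lay between 129 and 2468. The lowest gene signal of any detected miRNA was at most 4.62 on any of the 16 arrays.

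The 8 probes of the undetected members stood at the level of the negative control spots. Before normalization their mean was 0.04 to 0.22 below the negative controls on the log2 scale, while the brighter miR-34a probe was 1.55 to 5.47 above them. Their normalized signals stayed between 5.79 and 6.01 (log2) on all arrays. In a limma fit over all 1857 probes, 0 of these 8 probes were called in any of the 5 comparisons described below, against 5.22% of all probes for mutants and controls at P4, 0.646% at E17, 4.42% for age in controls, 2.32% for age in mutants and 1.99% for the effect at P4 minus that at E17. The differences ran from −0.04 to 0.07, and 2 of the 40 tests had an unadjusted p under 0.05. A miR-34b-5p probe reached an adjusted p of 0.0216 (limma) for P4 minus E17 in controls with a log2 difference of 0.07 and no spot well above background. Its background-subtracted signal was 4.83 to 6.67 in controls at P4 and −0.49 to 2.91 in controls at E17. Low levels of these 4 miRNAs would not have been detectable at this signal.

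At P4, miR-34a was far lower in nerves of Dicer fl/fl mice than in controls. The brighter of its probes (A_54_P2499) had normalized log2 signals of 10.45, 10.33, 10.11 and 10.31 in the 4 controls. In the 4 mutants the signals were 8.20, 8.11, 7.80 and 8.06. The groups did not overlap, which held in this direction for 20.0% of the probes tested, and the highest mutant lay well below the lowest control. The means were 10.30 ± 0.14 and 8.04 ± 0.17 (SD, n = 4 each), a log2 difference of −2.26 with a standard error of 0.104 (limma, adjusted p = 9.85e-10), which is 4.78-fold lower. The other probe (A_54_P2498) read 8.85 to 9.13 in the 4 controls and 6.72 to 6.92 in the 4 mutants, with SDs of 0.12 and 0.09, a difference of −2.15 with a standard error of 0.0854 (limma, adjusted p = 2.17e-10).

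Calls required both an adjusted p no higher than 0.05 and a log2 difference of 0.5 or more in either direction. Both miR-34a probes were called lower at P4, while 7.93% of the 681 probes tested were. Ordered by difference, the 2 probes were the second and the third lowest of the 681, next to miR-338-3p, a miRNA known from myelinating glia, at −2.85. The middle of all probes was at 0.02, and 5 percent of them lay below −0.69.

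**Figure D1:**
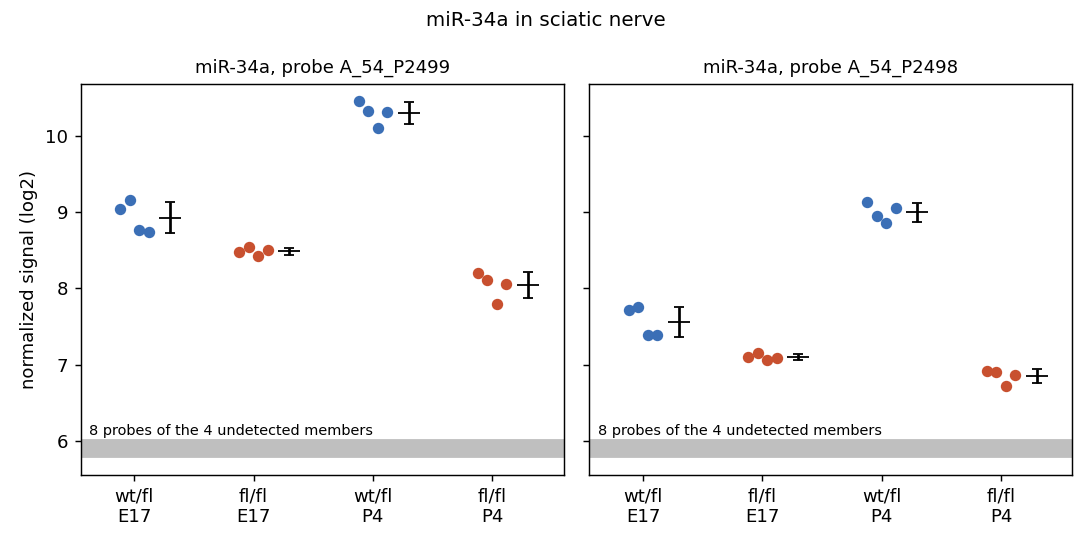
Normalized signal (log2) of the brighter (left) and the other (right) miR-34a probe on each of the 16 arrays, with a point per mouse and the mean ± SD of the 4 mice beside it; the grey band is the range of the 8 probes of the 4 undetected members (5.79 to 6.01). Controls at P4 stand highest (10.30 on the brighter probe) and mutants at P4 lowest (8.04), and every miR-34a value lies above the band.

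The gene signal before normalization showed the same order with a wider gap. It was 2341, 2468, 2414 and 2022 in the controls at P4 and 178, 202, 129 and 180 in the mutants. The means were 2311 ± 200 and 172 ± 30.7 (SD, n = 4 each), a 13.4-fold difference (exact two-sided permutation test, p = 0.0286 and 0.0571 adjusted over 4 comparisons). With 4 arrays against 4, 0.0286 is the smallest p that this test can give. These values are not scaled between arrays, and the summed signal of all miRNAs was itself lower in the mutants, at 56841 to 83630 against 122860 to 154076 in the controls.

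Scaled to that sum, miR-34a made up 1.72% ± 0.115 of the miRNA signal in controls and 0.248% ± 0.019 in mutants at P4 (SD, n = 4 each). This is a 6.95-fold lower share (exact two-sided permutation test, p = 0.0286, also after adjustment over the 4 comparisons of shares). The mutant shares ran from 0.228% to 0.273% and the control shares from 1.60% to 1.83%. The 3 scales therefore gave different sizes, 4.78-fold, 6.95-fold and 13.4-fold, with no overlap of groups on any of them. The normalized spot signals contain the spot background and are quantile normalized between arrays, while the other 2 scales are neither. On the brighter probe, the spot signals without normalization between arrays gave a 10.1-fold difference. With a background correction (normexp) and quantile normalization it was 4.10-fold. What sets the sizes apart was not tested.

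**Figure D2:**
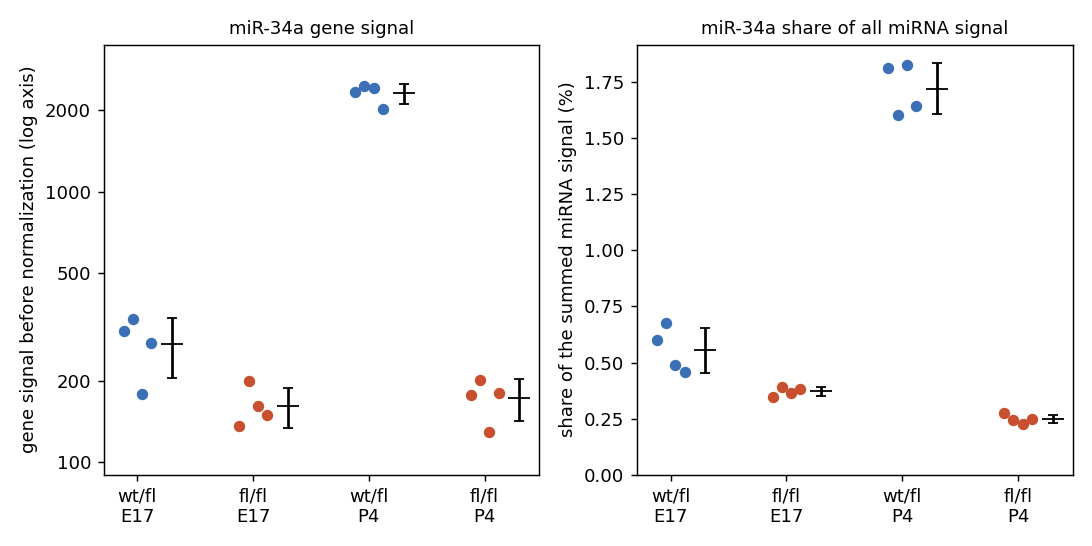
miR-34a gene signal before normalization (left, log axis, scanner units) and its share of the summed miRNA signal (right, percent, axis from 0) on the 16 arrays, with mean ± SD of 4 mice per group. The controls at P4 stand apart at 2311 and 1.72%, and the 2 mutant groups have similar gene signals of 162 at E17 and 172 at P4.

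At E17 the same comparison gave a smaller difference that was not called. The brighter probe read 9.04, 9.16, 8.77 and 8.74 in controls and 8.48, 8.54, 8.42 and 8.51 in mutants (normalized log2 signal). Every mutant lay below every control, and the controls spread more widely. The difference was −0.44 with a standard error of 0.104 (limma, adjusted p = 0.0192), from 8.93 ± 0.21 to 8.49 ± 0.05 (SD, n = 4 each). On the other probe it was −0.46 with a standard error of 0.0854 (limma, adjusted p = 0.00456).

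In this fit both adjusted p-values passed 0.05 and both differences stayed under the limit of 0.5, so that 0 of 2 probes were called lower, as were 1.32% of all probes. Without the limit on size 5.43% of all probes passed in this direction, and arrays did not overlap in this direction for 12.2%. Leaving out control replicate 4 moved the brighter probe to −0.50 and called it, and leaving out control replicate 1 or 2 gave an adjusted p of 0.0689 or 0.0516 (limma). The share of the summed signal was 0.555% ± 0.101 in controls and 0.371% ± 0.020 in mutants (SD, n = 4 each; exact two-sided permutation test, p = 0.0286). The unscaled gene signal overlapped, at 178 to 337 in controls and 136 to 200 in mutants (exact two-sided permutation test, p = 0.0571 and 0.0762 adjusted).

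The difference between mutants and controls was larger at P4 than at E17. The P4 difference minus the E17 difference was −1.82 on the brighter probe with a standard error of 0.146 (limma, adjusted p = 1.22e-06) and −1.68 on the other with a standard error of 0.121 (limma, adjusted p = 5.48e-07). Both probes were called lower, against 4.99% of all probes. They stood at the fourth and the fifth lowest place of the 681. Each of the 2 differences was taken between arrays of the same slide.

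**Figure D3:**
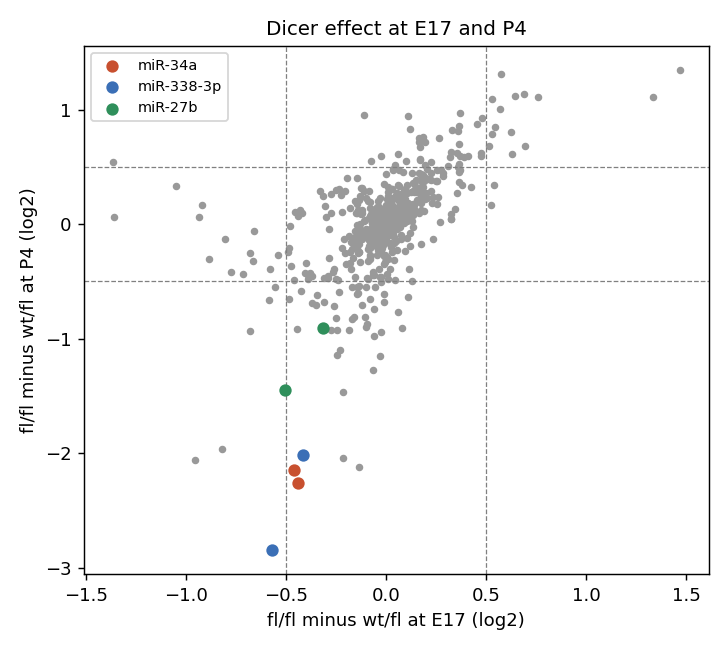
Log2 difference of mutants and controls at E17 (horizontal) and at P4 (vertical) for each of the 681 probes tested, with dashed lines at ±0.5. The miR-34a probes lie at −0.44 and −0.46 on the horizontal axis and −2.26 and −2.15 on the vertical axis, between the probes of miR-338-3p, and the probes of miR-27b lie above them.

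In controls, miR-34a rose from E17 to P4. The brighter probe went from 8.74 to 9.16 (range of the 4 arrays) at E17 to 10.11 to 10.45 at P4. The log2 difference was 1.37 (limma, adjusted p = 2.08e-07), which is 2.59-fold, and on the other probe 1.43 (limma, adjusted p = 1.58e-08). Both probes were called higher, against 5.43% of all probes, and were the third and the second highest of the 681. The share of the summed signal was 3.10-fold higher at P4 (exact two-sided permutation test, p = 0.0286), and the unscaled gene signal 8.43-fold higher (exact two-sided permutation test, p = 0.0286 and 0.0571 adjusted).

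In mutants no such rise was seen. The brighter probe read 8.42 to 8.54 at E17 and 7.80 to 8.20 at P4, a log2 difference of −0.44 (limma, adjusted p = 0.00603), and the other probe gave −0.25 (limma, adjusted p = 0.0423). Neither was called, since both lay under the limit of 0.5, and 5.29% of all probes were called lower. The direction of this difference depended on the scaling. Without normalization between arrays it was 0.10 (limma, adjusted p = 0.996), and the unscaled gene signal was 162 ± 27.4 at E17 and 172 ± 30.7 at P4 (SD, n = 4 each; exact two-sided permutation test, p = 0.629). As a share of the summed signal miR-34a went from 0.371% to 0.248% (exact two-sided permutation test, p = 0.0286). Both comparisons of ages share their arrays with the comparisons of genotypes.

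**Figure D4:**
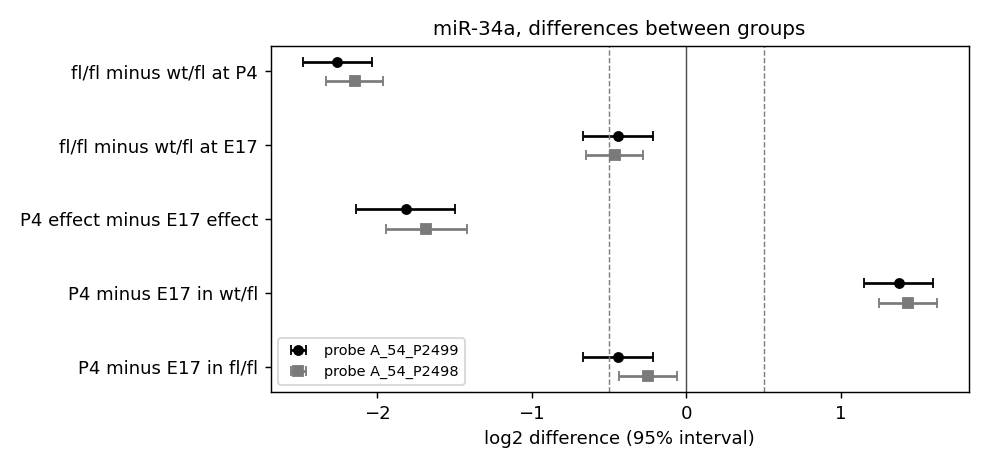
Log2 difference of the brighter (black circles) and the other (grey squares) miR-34a probe in the 5 comparisons, with 95% intervals and dashed lines at the limit of ±0.5. The intervals use the limma standard errors and a t distribution on the residual degrees of freedom alone, unlike the limma p-values. The intervals at P4, for the P4 minus E17 effect and for age in controls lie beyond the dashed lines, and those at E17 and for age in mutants extend inside them.

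The order of the 4 groups was therefore controls at P4, controls at E17, mutants at E17 and mutants at P4 on both probes and on the share of the summed signal. Neighbouring groups did not overlap on these 3 measures. Of the 681 probes tested, 20.9% did not overlap for P4 above E17 in controls. The same held for 12.2% for mutants below controls at E17 and for 13.7% for P4 below E17 in mutants. Without normalization the difference between the 2 mutant groups on the brighter probe changed sign, as given above. The 2 probes followed each other over the arrays with r = 0.995 (Pearson, n = 16), as a description of probes that share each library. Their background-subtracted ratio was not constant. It was 3.70 to 4.02 in mutants at P4 and 3.09 to 3.38 in controls at P4, and 3.12 to 3.64 in both groups at E17.

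The relatives miR-449a, miR-449b and miR-449c are best known from multiciliated epithelium. The GGCAGUG seed was found in miR-449a and miR-449c, and RefSeq gave no mature entry for miR-449b. None of the 3 counted as expressed. miR-449a and miR-449c were detected on 0 of 16 arrays. miR-449b was detected on 1 array, that of mutant replicate 3 at P4, with a gene signal of 49.2, while its gene signals on the other 15 arrays were below 0. Without that array, miR-34a was the only detected miRNA of the array's miR-34 and miR-449 names.

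A chosen list of other miRNAs known to be linked to p53 held miR-192, miR-194, miR-215, miR-107, miR-200c, miR-143, miR-145, miR-15a and miR-16. Of these 9 names 6 were tested, and miR-215, miR-145 and miR-200c were detected on 0 of 16 arrays. Among the 6, miR-194 counted as expressed only through controls at P4, with detection on 3 of 4 arrays there and on 0 of 4 in each other group. Its differences from that group, which enter the medians below, follow in part from the filter. At P4, 2 of the 6 were called lower in mutants and 0 higher, where 10.7% and 10.3% of the 281 miRNAs tested were, with a median difference of −0.36 beside 0.06 over all of them. These were miR-15a at −0.81 (limma, adjusted p = 0.000207) and miR-16 at −0.71 (limma, adjusted p = 0.000922), which come from shared clusters and are known as repressors of cyclins and Bcl2. miR-107 was at −0.48 and miR-143 at 0.08, and neither was called. At E17 0 of 6 were called, and 2.49% of all miRNAs were called lower, with a median of −0.13 beside 0.00, and miR-107 was the lowest of the 6 at −0.25.

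None of the 6 was called higher at P4 than at E17 in controls, where miR-34a and 8.19% of all miRNAs were. Their median difference was 0.10, beside −0.02 over all miRNAs, and miR-15a stood at −0.04 and miR-16 at 0.05. In mutants miR-15a (−0.69) and miR-16 (−0.54) were called lower at P4 than at E17, as were 7.47% of all miRNAs.

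The expressed miRNAs whose profile over the 16 arrays was most like that of miR-34a were miR-27b, miR-338-5p, miR-30a*, miR-30a and miR-140, with Pearson r of 0.978, 0.970, 0.963, 0.961 and 0.933 among 280 miRNAs compared. The median r over all of them was −0.11, and 14 had an r above 0.9. All points share 4 groups, and within groups the r of these 5 was 0.49 to 0.77. Since the likeness was taken over the same arrays, their differences between groups follow in part from the choice and are given as a description. At P4 (mutants minus controls), where 10.7% of all miRNAs were called lower, miR-27b was at −1.45, miR-30a at −1.15, miR-140 at −0.91, miR-30a* at −0.83 and miR-338-5p at −0.60. None of these 5 reached the −2.26 of miR-34a. Past this cut, at ranks 6 to 12, miR-146b (r = 0.931) was at −2.12, miR-204 at −2.04 and miR-338-3p at −2.85. The others at these ranks, miR-23b, miR-340-5p, miR-340-3p and miR-24, lay between −0.93 and −0.45. miR-27b, which lies in a cluster with miR-23b and miR-24, stood at −0.51 at E17.

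This list depended on the scaling, with 2 to 4 of the 5 kept under 7 other settings. Under each of these settings miR-146b or miR-204 entered the list. miR-338-5p was detected on 5 of 16 arrays, 4 of them controls at P4, and counted as expressed only through that group. It turned to 0.04 at P4 when median signals were scaled to a 75th percentile per array. In controls miR-27b (0.84), miR-30a (0.82), miR-140 (0.73) and miR-30a* (0.60) were higher at P4 than at E17, and miR-338-5p stood at 0.43, under the limit.

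**Figure D5:**
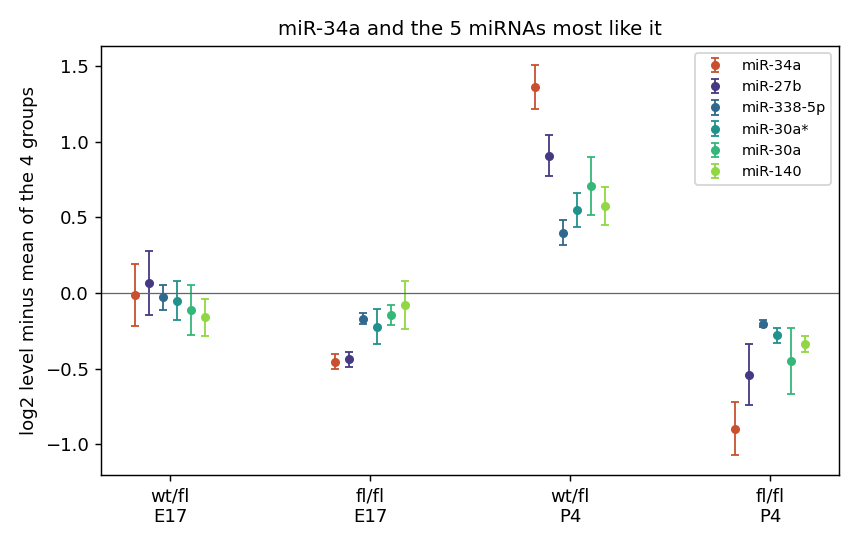
Group means (log2 level minus the mean of the 4 groups, ± SD, n = 4) of miR-34a and of the 5 miRNAs whose profile over the 16 arrays was most like it. All 6 stand highest in controls at P4, and of these 6 miR-34a spans the widest range, from 10.30 in controls to 8.04 in mutants at P4 before centring.

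Some marker miRNAs of the cell types of the nerve also differed between mutants and controls. All 4 of the miRNAs listed for Schwann cells and myelinating glia (miR-338-3p, miR-338-5p, miR-204 and miR-138) were called lower in mutants at P4, beside 10.7% of all miRNAs. Of these, miR-338-5p counted as expressed only through controls at P4, with detection on 4 of 4 controls and 0 of 4 mutants. Its call therefore follows in part from the filter. The summed share of the signal of the 4 was 0.408% to 0.626% in mutants and 3.40% to 4.60% in controls. At E17 0 of 4 were called, with shares of up to 1.34% in mutants and of 1.40% to 2.22% in controls. However, miR-138 and miR-338-5p were each detected on only 1 of 4 controls and 0 of 4 mutants at E17. A lower level of these could hardly have been called there. For fibroblasts and smooth muscle 3 of 4 tested miRNAs were called higher in mutants at P4, beside 10.3% of all miRNAs (7.07% to 8.72% against 3.20% to 3.67%), with the listed miR-145 detected on no array. The erythroid list had 1 of 3 higher, at 0.542% to 1.95% against 0.167% to 1.13%, the leukocyte list 1 of 3 (0.430% to 0.725% against 0.173% to 0.222%; miR-142-5p and miR-150 were detected on no array) and the endothelial list 1 of 2 (1.55% to 1.81% against 0.908% to 1.55%). Of the 4 skeletal muscle miRNAs 0 were called (0.236% to 1.52% against 0.201% to 0.372%), and of the 4 neuronal ones 1, miR-9 at −0.68, was called lower (summed share 0.142% to 0.181% against 0.123% to 0.138%). At E17 3 of 4 fibroblast and smooth muscle miRNAs, 1 of 3 erythroid and 1 of 3 leukocyte miRNAs were called higher in mutants, beside 3.56% of all miRNAs, and 0 of the endothelial, skeletal muscle and neuronal ones were called. The part of these differences in the miR-34a result was not tested.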

How the data were processed

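miRNA was measured in sciatic nerves of 16 mice, 4 per group, on 1 array each (100 ng total RNA per the study's methods). The authors deposited scanner output of Agilent Feature Extraction 10.5.1.1, with an intensity for every spot and no normalization between arrays, and a table of quantile normalized intensities, used as an alternative. Per the file headers the array design is 021828. Groups follow the labels.

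Median spot signals were put on the log2 scale, quantile normalized over the 13000 non-control spots and averaged per probe, leaving out spots marked as outliers (3.54% over all arrays). No spot was saturated. limma 3.58.1 (R 4.3.3) was fitted to all 16 arrays with 4 group means, and p-values were adjusted by Benjamini-Hochberg over the 681 probes. The methods' t-test was an alternative. The script was tested on simulated data. Shares and gene signals, which the software gives per miRNA on a linear scale, were compared with exact permutation tests, with negative gene signals set to 0 in the sums.

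The names reported are all members, the seed relatives, the p53-linked miRNAs, the 5 expressed miRNAs with the highest Pearson correlation with miR-34a, and marker lists of cell types; the probe with the highest mean signal stands for a name, and a name counts as called where at least 1 probe is called. The members and lists were chosen with earlier results of these data known. Sequences are from RefSeq. The methods state 4 pairs of littermates per age, and the labels do not give the pairs. The number of arrays limits the precision.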

Additional observations from a re-analysis of the deposited data

Results flagged for a closer look

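The mutant effect on miR-34a differed between P4 and E17, by −1.82 on the brighter probe and −1.68 on the other (log2, limma interaction terms, called).

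In 4 of 76 groups of 4 arrays examined, a single array stood apart from the other 3, where chance gives about 1 in 20 (3.8). The gap as a share of the range was 0.929 for the brighter miR-34b-3p probe and 0.877 for a miR-34b-5p probe in controls at P4, both on replicate 2, within ranges of 5.90 to 5.98 and 5.89 to 5.91 (log2) at background level. It was 0.979 for the miR-449a gene signal in mutants at P4, where replicate 2 was at 1.98 and the lowest array at 0.20, also undetected. It was 0.970 for the miR-449b gene signal in mutants at P4, where replicate 3 was at 49.2 and the lowest array at −6.27, and replicate 3 was the only array on which miR-449b was detected.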

How the results depend on the processing

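For the brighter miR-34a probe the calls at P4 (−3.33 to −2.04), for age in controls (1.31 to 2.91) and for the difference between the mutant effects (−2.81 to −1.66) held under all settings tried, as did the called family probes in these comparisons (2 each). At E17 the brighter probe became called with background-subtracted signals scaled per array to a 75th percentile taken over detected probes (−0.50), when gene signals were quantile normalized (−0.65) and with no limit on size (−0.44). Its adjusted p was above 0.05 with the methods' t-test (0.0678), with the percentile over all probes (0.0768) and without normalization (0.118). Leaving out 1 array gave −0.50 to −0.36. The called family probes at E17 numbered 2 and 1 with that percentile over detected and over all probes, 2 with no limit, and 0 to 2 with 1 array left out (1 without control replicate 3, 2 without control replicate 4). For age in mutants the difference was 0.10 without normalization and −0.44, called, with no limit, and 1 and 2 family probes were called with the percentile over detected probes and with no limit. The E17 difference in share was −0.22 to −0.14 percentage points with 1 array left out (exact permutation test); p was 0.0571 without any 1 mutant, with no overlap. miR-338-5p at P4 reversed to 0.043 with median signals scaled in that way. The cause was not tested. That scaling moved the median of all probes by 0.77 at P4, and no normalization moved it by 0.42 for age in controls.

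Replicate numbers are shared between groups, and the labels do not say that they mark litters. Over all tested probes, same-numbered arrays did not deviate together (correlations of −0.28 to 0.46 at P4 and −0.52 to 0.09 at E17). Of the 16 arrays, 3 correlated best with their own number. On the brighter miR-34a probe, however, same-numbered mutants and controls at P4 differed by a near-constant −2.25, −2.22, −2.31 and −2.25. At E17 these differences were −0.56, −0.63, −0.34 and −0.23. The replicate block lowered the standard error of this probe at P4 from 0.104 to 0.0624. Whether the numbers mark pairs was not tested further. With the replicate number as a block the brighter probe kept −2.26 at P4 (limma, adjusted p = 1.55e-07), −0.44 at E17 (adjusted p = 0.00578) and −1.82 for their difference (adjusted p = 1.05e-05), and called family probes stayed at 2, 0 and 2; the ages have no pairing. The planned normexp correction of mean signals was not run, since the scanner columns given hold median and not mean signals. Median signals took their place, chosen after seeing the data. Gene signals give 1 value per miRNA and hence no probe counts, and the t-test and the fits of 2 groups give no difference between effects.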
